A study of Mus musculus with 6 samples.

Results

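The mitochondrial chromosome of the mouse carries 37 genes, and all 37 were examined here in GC-2spd cells, an immortalized mouse line derived from spermatocytes, under hypoxia and normoxia. They were taken as every annotated gene that the deposited tables place on chrM, which gave 13 mRNAs, 2 rRNAs and 22 tRNAs among 43412 annotated genes. The hypoxia-treated cells were kept at 1% O2 with 5% CO2, and the normoxic cells at 21% O2 with 5% CO2. Both groups carried no genetic change by the labels, shared the strain background C57BL/6J and the same serum-supplemented DMEM, and had 3 libraries each. The labels give no length of exposure and name no separate cultures behind the replicates, so p-values measure the spread between these libraries only. GC-2spd is 1 line sequenced in bulk, and less RNA per cell cannot be told apart from a different mix of cells.

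Mitochondrial DNA encodes core subunits of 4 complexes of oxidative phosphorylation, together with the rRNAs and tRNAs that translate them inside the organelle. Transcription runs along both strands as long polycistronic RNAs, and the tRNAs that lie between the other genes are cut out to release the mRNAs and rRNAs. The heavy-strand set holds 28 of the genes, and the light-strand set holds mt-Nd6 and 8 tRNAs. Most of the mRNAs receive short poly(A) tails after processing, so libraries made from poly(A) RNA hold these in large amounts. Mature tRNAs have no such tail. How fully each mRNA was captured, mt-Nd6 included, was not tested.

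The first set of sequences shows the tRNA genes that moved most in either direction, with the anticodon in capitals, in the 5′ to 3′ direction of the tRNA. mt-Ti (isoleucine, chrM:3706-3774, plus strand), mt-Tk (lysine, chrM:7700-7764, plus strand) and mt-Tp (proline, chrM:15356-15422, minus strand) rose. mt-Tl1 (leucine, chrM:2676-2750, plus strand) and mt-Te (glutamate, chrM:14071-14139, minus strand) fell. Sequences are those of the GENCODE M21 transcripts on mm10.
mt-Ti: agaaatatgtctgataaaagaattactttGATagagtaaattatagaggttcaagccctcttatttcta
mt-Tk: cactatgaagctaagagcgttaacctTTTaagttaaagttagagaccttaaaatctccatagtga
mt-Tp: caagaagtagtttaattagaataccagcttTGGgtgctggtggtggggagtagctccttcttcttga
mt-Tl1: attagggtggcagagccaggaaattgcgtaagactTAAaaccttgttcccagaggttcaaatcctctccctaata
mt-Te: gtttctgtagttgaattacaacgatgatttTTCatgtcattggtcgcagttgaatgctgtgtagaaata

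The next stretch shows why mt-Atp8 and mt-Atp6 cannot be read as separate RNAs. Their reading frames overlap by 43 bases (chrM:7927-7969), given in capitals within the stretch chrM:7897-7999 on the plus strand. The pair is kept as a single mRNA in mammalian mitochondria.
mt-Atp8/mt-Atp6: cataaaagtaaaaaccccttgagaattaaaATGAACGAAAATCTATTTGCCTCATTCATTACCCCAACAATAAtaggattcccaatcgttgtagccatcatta

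The last pair of sequences shows how closely a nuclear copy of mitochondrial DNA matches its source. The first 100 bases of mt-Nd3 (chrM:9459-9558, plus strand) and of the annotated pseudogene Gm28438 (chr1:24613020-24613119, minus strand) differ by the single substitution T3C, counted from 1 at the start of mt-Nd3, and the differing base is in capitals.
mt-Nd3: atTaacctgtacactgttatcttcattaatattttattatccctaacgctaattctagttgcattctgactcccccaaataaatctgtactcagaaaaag
Gm28438: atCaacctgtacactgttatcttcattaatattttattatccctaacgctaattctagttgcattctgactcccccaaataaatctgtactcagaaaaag

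The values are TPM (a gene's part of all transcript molecules, which takes gene length into account) as listed for annotated genes, from libraries with 5.75 to 6.72 gigabases of aligned sequence. Differences were tested with limma on log2(TPM + 1) over 13749 genes with a mean of at least 1 TPM, which all 37 mitochondrial genes passed, and a call is an adjusted p under 0.05. The fold changes below are on that log2(TPM + 1) scale, as hypoxia over normoxia. The line's label was checked against markers. None of 12 germ cell and spermatocyte markers reached a mean of 1 TPM and 5 were listed at 0 in every library, with a summed level of 0.348 to 0.922 TPM in hypoxia-treated cells and 0.815 to 1.37 TPM in normoxic cells. None of 6 spermatid markers reached 1 TPM either. Of 8 fibroblast markers 6 did, with Thy1 at 0 and a summed level of 7880 to 8060 TPM in hypoxia-treated cells, against 4040 to 5050 TPM in normoxic cells. Vim carried most of that gap (3937 to 4131 TPM in hypoxia-treated cells, against 1016 to 1905 TPM in normoxic cells), while Pdgfrb went the other way (1.33 to 1.67 TPM in hypoxia-treated cells, against 6.39 to 6.79 TPM in normoxic cells). Of the Sertoli cell markers 2 of 7 reached 1 TPM (summed 41.5 to 53.1 TPM in hypoxia-treated cells, against 39.0 to 51.1 TPM in normoxic cells). Of the Leydig cell markers 2 of 6 did (summed 7.17 to 10.6 TPM in hypoxia-treated cells, against 3.61 to 6.88 TPM in normoxic cells). Of the macrophage markers 2 of 5 did, with Ptprc at 0 (summed 10.5 to 11.5 TPM in hypoxia-treated cells, against 7.20 to 8.11 TPM in normoxic cells). The part of these markers in the results below was not tested.

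The RNA of the mitochondrial chromosome made up a smaller share of the transcriptome in hypoxia-treated cells. Its 37 genes held 5.49%, 5.59% and 5.58% of the annotated TPM in the 3 hypoxia libraries, against 9.29%, 9.28% and 9.25% in the 3 normoxia libraries. The means were 5.55% ± 0.0582 in hypoxia-treated cells and 9.27% ± 0.0220 in normoxic cells (SD, n = 3 each), and the libraries of the groups did not overlap. The 2-sided exact permutation test gave p = 0.1, the smallest value that 3 libraries against 3 can give. Over the loci assembled from the reads, in place of annotated genes, the share was 3.74% ± 0.237 in hypoxia-treated cells and 5.90% ± 0.292 in normoxic cells, a smaller difference. Within the mitochondrial TPM, mRNAs held 92.3% ± 0.298 in hypoxia-treated cells and 94.6% ± 0.226 in normoxic cells. rRNAs held 3.32% ± 0.155 in hypoxia-treated cells and 2.35% ± 0.0744 in normoxic cells, and tRNAs 4.41% ± 0.422 in hypoxia-treated cells and 3.09% ± 0.194 in normoxic cells. For each of these 3 shares the groups did not overlap (exact permutation p = 0.1, adjusted p = 0.133 over 4 shares). In aligned bases, which weight short genes less, the difference was -0.958 percentage points for the mRNAs in place of -2.28, and the tRNAs held 0.268% ± 0.00920 in hypoxia-treated cells and 0.217% ± 0.00519 in normoxic cells. Leaving out mt-Tm, whose TPM did not follow its coverage, the tRNA share of the TPM was 3.94% ± 0.122 in hypoxia-treated cells and 2.92% ± 0.0693 in normoxic cells. The share of the light-strand genes was 4.62% ± 0.142 in hypoxia-treated cells and 4.45% ± 0.0676 in normoxic cells (exact permutation p = 0.2, adjusted p = 0.2). Without the tRNAs this share, then mt-Nd6 alone, was 2.01% ± 0.0278 in hypoxia-treated cells and 2.84% ± 0.0195 in normoxic cells, the opposite direction.

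All 13 mitochondrial mRNAs were lower in hypoxia-treated cells, but to very different degrees. mt-Nd3 fell to 20.3% of its normoxic level, whereas mt-Co1, mt-Co2 and mt-Cytb kept 79.6% to 83.2% of theirs, and these 3 genes turned to a value of 0.00, 0.39 and 0.08 with quantile normalization. The other 9 mRNAs stood between 32.0% and 49.3% of the normoxic level. All 13 passed the test with no overlap between the groups, beside a background of 36.1% of the 13749 tested genes called lower and 41.0% whose hypoxia libraries all lay below the normoxia libraries. The median log2 fold change was -1.24 over the 13 mRNAs and -0.13 over all tested genes. Over all genes 4967 were called lower and 2463 higher. After scaling by the median ratio, which set the median of all genes at 0.00, 3613 were lower and 3607 higher, and the 13 mRNAs were lower in that fit too. With quantile normalization 10 of them were lower and 1, mt-Co2, was higher, beside 26.5% lower and 26.0% higher of all tested genes. That method gives the same value to the same rank in every library, so a gene that keeps its rank shows no change. The value of mt-Co2 did change there, and why the fits differ was not tested.

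**Figure D1:**
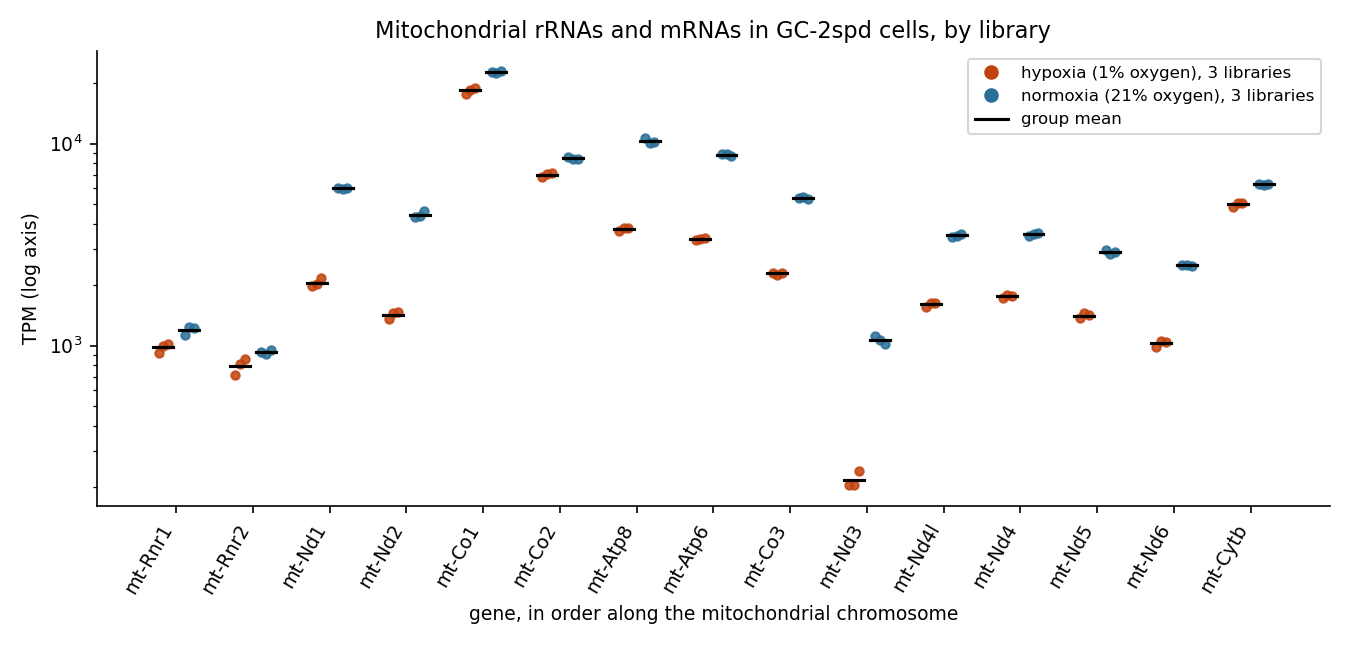
TPM on a log axis for the 2 rRNAs and 13 mRNAs in the order of the mitochondrial chromosome, with 1 point for each of 3 hypoxia and 3 normoxia libraries and a bar at each group mean. The hypoxia points lie below the normoxia points for each gene, closest for mt-Co1, mt-Co2, mt-Cytb and the rRNAs and furthest apart for mt-Nd3 (205, 204 and 239.8 against 1114, 1063 and 1015 TPM).

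The 7 complex I mRNAs, which encode membrane subunits of NADH dehydrogenase, fell, with log2 fold changes between -2.30 and -1.02. mt-Nd1, which forms part of the quinone channel, had 1970.4, 2019 and 2166 TPM in hypoxia-treated cells, against 6015, 5968 and 6005 TPM in normoxic cells (log2 fold change -1.55, SE 0.04, adjusted p = 1.55e-06, limma). mt-Nd2, one of the antiporter-like subunits of the membrane arm, had 1357, 1445 and 1462 TPM in hypoxia-treated cells, against 4308, 4364 and 4639.6 TPM in normoxic cells (-1.64, SE 0.04, adjusted p = 1.74e-06). Only mt-Nd3 had a log2 fold change further below 0 among the mRNAs.

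mt-Nd3, a short subunit at the junction of the membrane and matrix arms, had 205, 204 and 239.8 TPM in hypoxia-treated cells, against 1114, 1063 and 1015 TPM in normoxic cells. Its log2 fold change of -2.30 (SE 0.07, adjusted p = 2.67e-06, limma) was the furthest from 0 of the 37 genes, and its level was the lowest of the 13 mRNAs in each of the 6 libraries, which no longer held in normoxia once reads on its nuclear copy were added (rank 11 to 13). mt-Nd4l and mt-Nd4 lie side by side and are carried on a shared mRNA in mammals. mt-Nd4l had 1553, 1625 and 1633 TPM in hypoxia-treated cells, against 3451, 3498 and 3580.2 TPM in normoxic cells (-1.13, SE 0.03, adjusted p = 2.31e-06). mt-Nd4 had 1716, 1772 and 1769 TPM in hypoxia-treated cells, against 3476, 3583 and 3602 TPM in normoxic cells (-1.02, SE 0.03, adjusted p = 2.35e-06). Their values are therefore not independent of each other.

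mt-Nd5, the antiporter-like subunit at the far end of the membrane arm, had 1369, 1444 and 1413 TPM in hypoxia-treated cells, against 2986, 2853 and 2909.9 TPM in normoxic cells (-1.05, SE 0.03, adjusted p = 3.13e-06, limma). mt-Nd6 is the only protein-coding gene of the light-strand set, and its transcription starts from another promoter than that of the other 12 mRNAs. It had 985, 1051 and 1042 TPM in hypoxia-treated cells, against 2504, 2496 and 2483 TPM in normoxic cells (-1.28, SE 0.03, adjusted p = 1.76e-06). Its change lay inside the range of the heavy-strand complex I mRNAs.

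The 3 mRNAs of complex IV, cytochrome c oxidase, did not move together. mt-Co1, the catalytic subunit with the oxygen-reducing centre, had 17665, 18513 and 18835 TPM in hypoxia-treated cells, against 22702, 22279.5 and 22749 TPM in normoxic cells. Its log2 fold change was -0.30 (SE 0.03, adjusted p = 0.000361, limma), and it was not called without the filter on low values (adjusted p = 0.184). It was 0.00 with quantile normalization, which cannot show a change where a gene keeps its rank. mt-Co2, which takes electrons from cytochrome c, had 6853, 7092 and 7123 TPM in hypoxia-treated cells, against 8551, 8349.7 and 8419 TPM in normoxic cells. Its log2 fold change was -0.27 (SE 0.03, adjusted p = 0.000371), but 0.39 with quantile normalization (adjusted p = 6.67e-05), and the call was lost without the filter (adjusted p = 0.0560). mt-Co3, a membrane subunit with no metal centre, had 2294, 2246 and 2301 TPM in hypoxia-treated cells, against 5405, 5467 and 5325 TPM in normoxic cells (-1.24, SE 0.03, adjusted p = 1.25e-06). It therefore stood with the complex I and complex V mRNAs and apart from mt-Co1 and mt-Co2.

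mt-Cytb, the cytochrome b subunit of complex III, had 4848, 5065 and 5085 TPM in hypoxia-treated cells, against 6293, 6259 and 6286 TPM in normoxic cells (-0.33, SE 0.03, adjusted p = 0.000170, limma; 0.08 with quantile normalization). In complex V, the ATP synthase, mt-Atp8 had 3692, 3805 and 3814 TPM in hypoxia-treated cells, against 10649, 10107.6 and 10141 TPM in normoxic cells (-1.45, SE 0.03, adjusted p = 1.25e-06). mt-Atp6, which forms part of the proton channel, had 3339, 3389 and 3416 TPM in hypoxia-treated cells, against 8906, 8854 and 8654 TPM in normoxic cells (-1.38, SE 0.03, adjusted p = 1.12e-06). The values of these overlapping genes are not independent of each other.

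**Figure D2:**
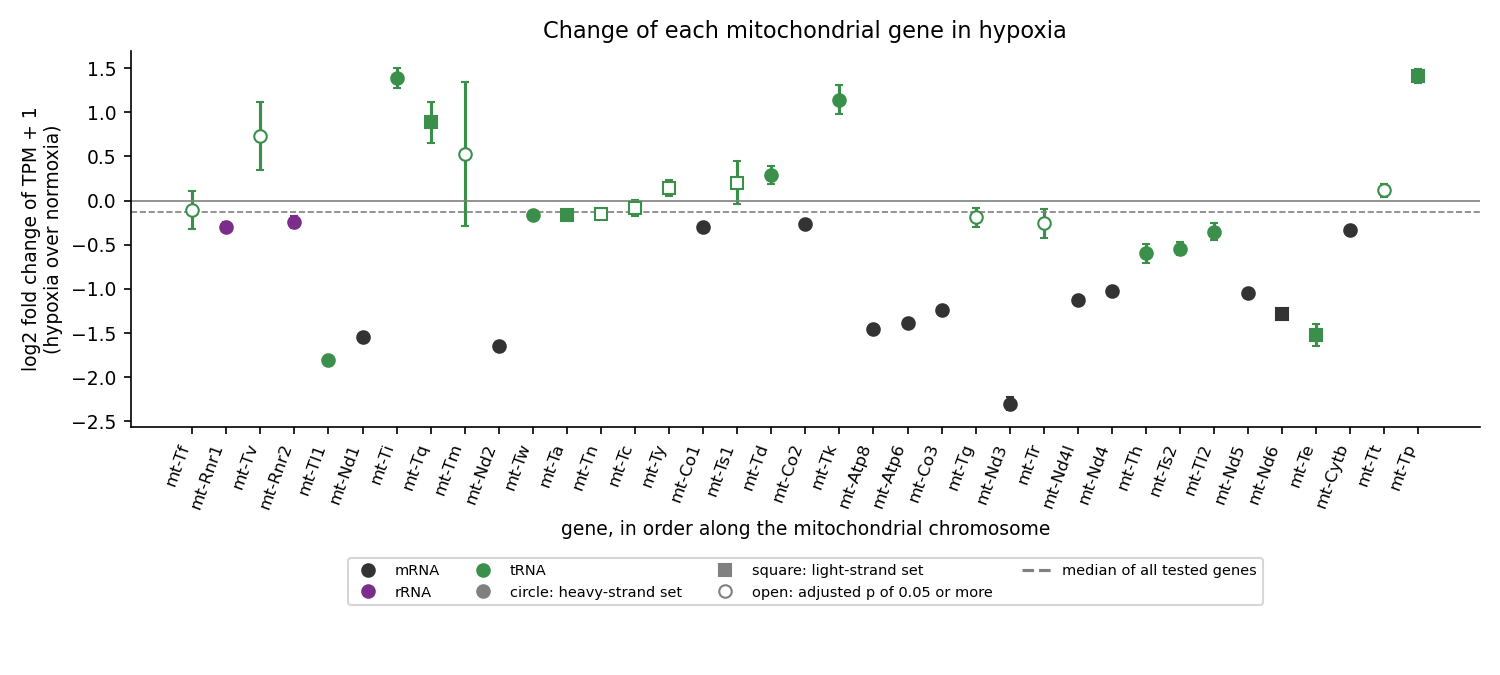
Log2 fold change of TPM + 1, hypoxia over normoxia, with its SE for the 37 genes in order along the chromosome, coloured by class, with squares for the light-strand set, open symbols for genes that were not called and a dashed line at the median of all tested genes (-0.13). The mRNAs spread from -2.30 (mt-Nd3) to -0.27 (mt-Co2), and 5 filled tRNA symbols lie above 0.

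Because the mRNAs did not fall evenly, the make-up of the mitochondrial mRNA pool differed between the groups. mt-Co1, mt-Co2 and mt-Cytb together held 61.4%, 61.7% and 61.7% of the TPM of the 13 mRNAs in hypoxia-treated cells, against 43.5%, 43.3% and 43.6% in normoxic cells. The means were 61.6% ± 0.206 in hypoxia-treated cells and 43.5% ± 0.161 in normoxic cells, and these 3 genes were put together after their values were seen. The 7 complex I mRNAs held 19.2% ± 0.0999 in hypoxia-treated cells and 27.9% ± 0.313 in normoxic cells, with no overlap between the libraries (exact permutation p = 0.1). mt-Co1 ranked 1 in all 6 libraries. mt-Co2 and mt-Cytb ranked 2 and 3 in the hypoxia libraries and 4 and 5 in the normoxia libraries, while mt-Atp8 and mt-Atp6 ranked 4 and 5 in the hypoxia libraries and 2 and 3 in the normoxia libraries. These ranks depend on how reads were placed. With reads on a nuclear copy of this DNA added, mt-Cytb ranked 4 in the hypoxia libraries and 7 in the normoxia libraries. mt-Atp6 then ranked 3 and mt-Atp8 6 in the hypoxia libraries, and mt-Atp6 ranked 2 and mt-Atp8 5 in the normoxia libraries. No reads were added to mt-Atp8, which has no annotated copy, so its distance from mt-Atp6 in these ranks is not read as a difference. The share of mt-Co1, mt-Co2 and mt-Cytb was then 58.8% ± 0.410 in hypoxia-treated cells and 40.6% ± 0.216 in normoxic cells.

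**Figure D3:**
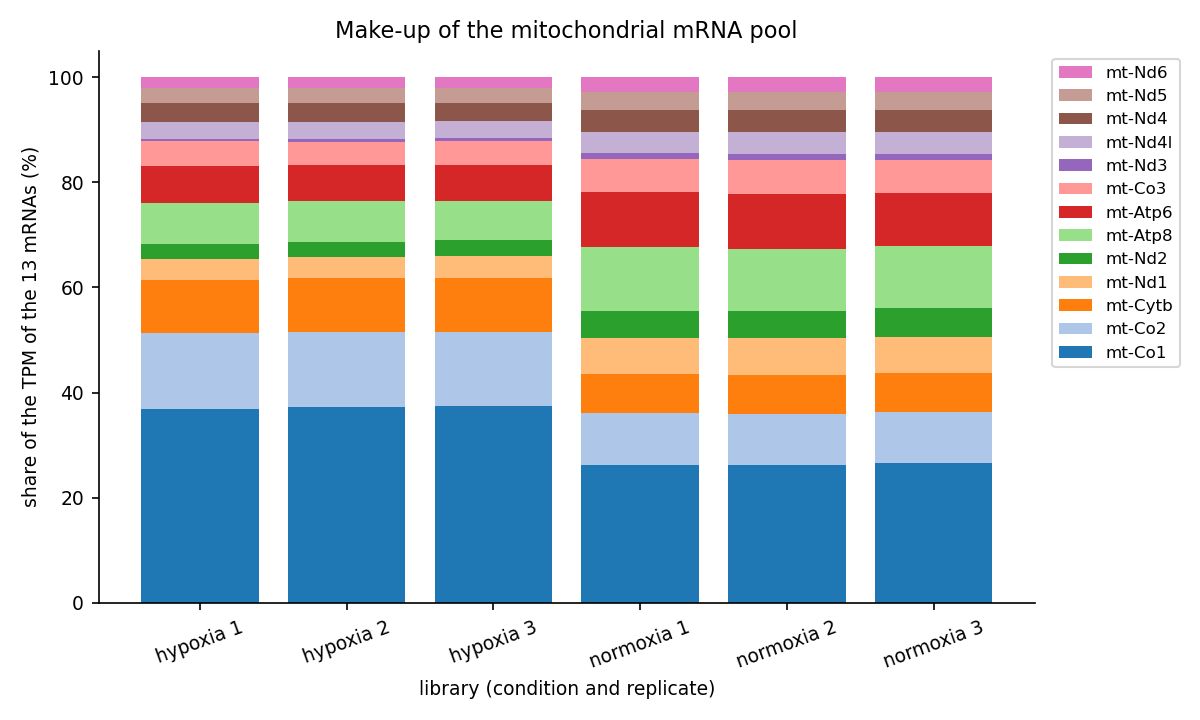
Share in percent of the summed TPM of the 13 mitochondrial mRNAs held by each gene, stacked, for the 3 hypoxia and then the 3 normoxia libraries. The lower 3 segments (mt-Co1, mt-Co2 and mt-Cytb) reach 61.4% to 61.7% in the hypoxia libraries and 43.3% to 43.6% in the normoxia libraries.

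A second fit asked which mitochondrial genes moved more or less than the mitochondrial mRNAs as a whole, by taking each value relative to the mean of the 13 mRNAs in its library. Of the mRNAs, 7 were lower than that mean in hypoxia-treated cells, 5 were higher and mt-Nd4l was not called (0.02). The same fit called 1.72% of all tested genes lower and 89.7% higher, and nothing is read from this background, since the mRNAs set the scale. The lower genes were mt-Nd3 (-1.15, SE 0.06), mt-Nd2 (-0.49, SE 0.04), mt-Nd1 (-0.40, SE 0.03), mt-Atp8 (-0.30, SE 0.03), mt-Atp6 (-0.23, SE 0.03), mt-Nd6 (-0.13, SE 0.03) and mt-Co3 (-0.09, SE 0.03). The higher genes were mt-Co2 (0.88, SE 0.03), mt-Co1 (0.85, SE 0.03), mt-Cytb (0.82, SE 0.03), mt-Nd4 (0.13, SE 0.03) and mt-Nd5 (0.10, SE 0.03). The limma adjusted p of mt-Co2, mt-Co1 and mt-Cytb lay between 3.34e-07 and 4.05e-07, and that of mt-Nd3 was 2.41e-06. The calls of mt-Co3 (adjusted p = 0.0327) and mt-Nd5 (adjusted p = 0.0204) were lost with the replicate block (0.0734 and 0.0562) and when single libraries were left out. The adjustment ran over all tested genes, most of which were called in this fit, so it is a weak correction for the 13 mRNAs. The 13 relative values sum to 0 by construction.

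Position along the chromosome, length, base composition and level were set beside the changes as a description. Over the 13 mRNAs, Spearman's rho with the log2 fold change was 0.28 for the order along the chromosome, 0.47 for gene length, 0.60 for GC content and 0.32 for the normoxic level. The genes share the same 6 libraries and in part the same precursor RNAs, so these values carry no test. The mRNAs that kept most of their level were not neighbours throughout: mt-Co1 and mt-Co2 are separated only by tRNAs, while mt-Cytb lies at the far end of the heavy-strand order.

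Both rRNAs of the mitochondrial ribosome were lower in hypoxia-treated cells, by less than most mRNAs. mt-Rnr1, the small-subunit rRNA, had 923, 998 and 1017 TPM in hypoxia-treated cells, against 1134, 1241 and 1227 TPM in normoxic cells (-0.29, SE 0.05, adjusted p = 0.00330, limma). mt-Rnr2, the large-subunit rRNA, had 712, 808 and 859 TPM in hypoxia-treated cells, against 934, 911 and 955 TPM in normoxic cells (-0.24, SE 0.07, adjusted p = 0.0231). The groups did not overlap for either gene. Since the libraries were made from poly(A) RNA, a change in rRNA level cannot be told apart from a change in the part of it captured. The same holds for the rRNA share given above. The call of mt-Rnr2 was lost without the filter on low values (adjusted p = 0.0662), without normoxia replicate 1 (0.0598), without normoxia replicate 3 (0.0660), without the variance trend (0.0505) and after median-ratio scaling (0.214). The call of mt-Rnr1 was lost only after median-ratio scaling (0.0523). Relative to the mean of the mRNAs, mt-Rnr1 stood higher by 0.85 (SE 0.05, adjusted p = 2.79e-06, limma) and mt-Rnr2 by 0.91 (SE 0.05, adjusted p = 3.87e-06). That fit called 89.7% of all tested genes higher, with a median of 1.02, so these values are not particular to the rRNAs.

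The 22 tRNA genes did not move as a group. In hypoxia-treated cells 7 fell, 5 rose and 10 did not pass the test, beside a background of 36.1% of tested genes lower and 17.9% higher. The groups did not overlap for 8 that were lower and 5 that were higher, beside 41.0% and 21.4% of all tested genes. The balance turned with the scaling: 4 were lower and 7 higher after median-ratio scaling, which lost mt-Tw, mt-Ta and mt-Tl2 and added mt-Ty (0.29, adjusted p = 0.0201, limma) and mt-Tt (0.26, adjusted p = 0.0109), and 6 were lower and 6 higher with quantile normalization. Over the 37 genes, 22 were lower and 5 higher as deposited (59.5% and 13.5%). This became 17 and 7 after median-ratio scaling (45.9% and 18.9%) and 18 and 7 with quantile normalization (48.6% and 18.9%). As background, the median-ratio fit called 26.3% of its 13734 tested genes lower and 26.3% higher. The quantile fit called 26.5% of the 13749 lower and 26.0% higher. For the 22 tRNAs these shares were 18.2% and 31.8% in the median-ratio fit, and 27.3% in both directions in the quantile fit. Whether the tRNA balance departs from this background was not tested. As deposited, the median log2 fold change of the 22 tRNAs was -0.10. The summed level of the tRNAs was 2541, 2182 and 2340.2 TPM in hypoxia-treated cells, against 2735, 2995 and 2689 TPM in normoxic cells. Without mt-Tm it was 1984, 2084 and 2220.6 TPM in hypoxia-treated cells, against 2678, 2674 and 2571 TPM in normoxic cells. Since the libraries were made from poly(A) RNA, reads of mature tRNAs and of uncut precursors or tailed fragments cannot be told apart in these values, and each tRNA gene is only 59 to 75 bases long.

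**Figure D4:**
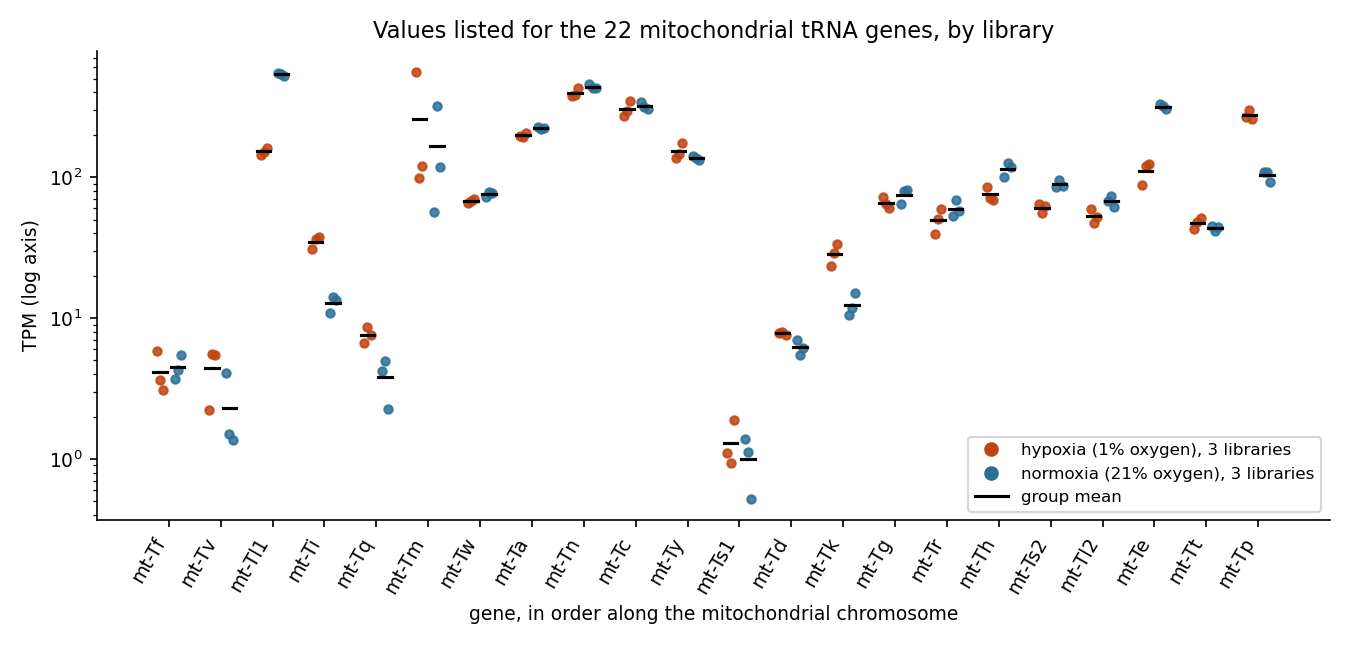
TPM on a log axis listed for the 22 tRNA genes in the order of the chromosome, with 1 point for each of 3 hypoxia and 3 normoxia libraries and a bar at each group mean. mt-Ti, mt-Tk and mt-Tp lie higher in hypoxia and mt-Tl1 and mt-Te lower, while the mt-Tm points spread widely in both groups.

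The tRNAs that rose were those for isoleucine, lysine, proline, glutamine and aspartate. mt-Tp, on the light strand next to the control region, had 266.9, 299.0 and 260.4 TPM in hypoxia-treated cells, against 108.0, 109.0 and 92.4 TPM in normoxic cells (1.41, SE 0.08, adjusted p = 2.81e-05, limma). mt-Ti had 30.7, 36.2 and 37.6 TPM in hypoxia-treated cells, against 10.9, 14.0 and 13.3 TPM in normoxic cells (1.39, SE 0.12, adjusted p = 0.000119). mt-Tk had 23.2, 29.1 and 33.5 TPM in hypoxia-treated cells, against 10.5, 11.7 and 15.02 TPM in normoxic cells (1.14, SE 0.17, adjusted p = 0.00128). In all 3, each hypoxia library exceeded each normoxia library.

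The other 2 rested on few reads. mt-Tq, on the light strand beside mt-Ti, had 6.61, 8.69 and 7.63 TPM in hypoxia-treated cells, against 4.22, 4.94 and 2.26 TPM in normoxic cells (0.88, SE 0.23, adjusted p = 0.0160, limma). Its hypoxia libraries held 1087, 1618 and 1235 aligned bases, and its normoxia libraries 797, 833 and 401, and the call was lost without hypoxia replicate 2 (adjusted p = 0.0533) and without the filter (0.0513). mt-Td had 7.79, 7.97 and 7.59 TPM in hypoxia-treated cells, against 6.98, 5.48 and 6.15 TPM in normoxic cells (0.29, SE 0.10, adjusted p = 0.0448). Leaving out any 1 library other than normoxia replicate 1 ended this call, with adjusted p between 0.0786 and 0.122.

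Of the tRNAs that fell, mt-Tl1, between mt-Rnr2 and mt-Nd1, had 144, 151 and 162 TPM in hypoxia-treated cells, against 547, 542 and 518 TPM in normoxic cells (-1.81, SE 0.05, adjusted p = 2.12e-06, limma). mt-Te, next to mt-Nd6 on the light strand, had 87.7, 120.4 and 124 TPM in hypoxia-treated cells, against 328, 318 and 302 TPM in normoxic cells (-1.52, SE 0.13, adjusted p = 0.000120). Their changes were near those of mt-Nd1 (-1.55) and mt-Nd6 (-1.28), the neighbouring mRNAs on the same strand. Such a likeness was not general. mt-Tl1 also adjoins mt-Rnr2 (-0.24), and mt-Tw (-0.16) adjoins mt-Nd2 (-1.64) on the same strand. mt-Tg (-0.19, not called) lies between mt-Co3 (-1.24) and mt-Nd3 (-2.30). mt-Th, mt-Ts2 and mt-Tl2, the run of 3 tRNAs between mt-Nd4 and mt-Nd5, fell by 0.60, 0.54 and 0.35 on the log2 scale, with limma adjusted p of 0.00354, 0.000940 and 0.0190. The call of mt-Tl2 was lost in 4 of the 6 fits without 1 library (adjusted p 0.0518 to 0.0586). mt-Tw and mt-Ta each fell by 0.16 (adjusted p = 0.0290 and 0.0146), and both lost the call after median-ratio scaling, at -0.02 and -0.01. mt-Tw also lost it without hypoxia replicate 1 or 2 or normoxia replicate 2 or 3 (adjusted p 0.0713 to 0.0873), and mt-Ta without normoxia replicate 1 (0.0502).

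A tRNA's level was also set against that of a nearby mRNA. mt-Ti stood at 1.56%, 1.79% and 1.74% of the mt-Nd1 TPM in hypoxia-treated cells, against 0.181%, 0.235% and 0.222% in normoxic cells. mt-Tk stood at 0.758% ± 0.125 of mt-Atp8 in hypoxia-treated cells and 0.121% ± 0.0250 in normoxic cells (SD, n = 3 each). Against mt-Co2, its other neighbour, which fell less, the gap was smaller (0.407% ± 0.0660 in hypoxia-treated cells and 0.147% ± 0.0283 in normoxic cells). mt-Tp, which is on the other strand with mt-Tt in between, stood at 5.51% ± 0.391 of mt-Cytb in hypoxia-treated cells and 1.64% ± 0.15 in normoxic cells. These ratios were higher in all 3 hypoxia libraries. That direction follows from the choice of tRNAs that rose and mRNAs that fell, so it is not a further result. mt-Tl1, which fell, stood at 7.43% ± 0.0926 of mt-Nd1 in hypoxia-treated cells and 8.93% ± 0.266 in normoxic cells. mt-Te stood at 10.7% ± 1.61 of mt-Nd6 in hypoxia-treated cells and 12.7% ± 0.475 in normoxic cells.

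The 10 tRNAs without a call included several with narrow spread. mt-Tn had 395 ± 27.9 TPM in hypoxia-treated cells and 439 ± 17.6 TPM in normoxic cells, a difference with no overlap that missed the threshold (-0.15, SE 0.06, adjusted p = 0.0647, limma). mt-Tc (-0.08, SE 0.09), mt-Ty (0.15, SE 0.09), mt-Tt (0.12, SE 0.07) and mt-Tg (-0.19, SE 0.11) had overlapping libraries, as did mt-Tr (-0.26, SE 0.16). mt-Tf, mt-Tv and mt-Ts1 averaged under 5 TPM in both groups and had between 90 and 1000 aligned bases in a library, and no difference passed the test at this depth. Leaving out 1 library added calls: mt-Tv was higher without hypoxia replicate 1 (adjusted p = 0.0497) or normoxia replicate 1 (0.0422), mt-Tg lower without normoxia replicate 1 (0.0364) and mt-Tn lower without hypoxia replicate 3 (0.0132).

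mt-Tm, the methionine tRNA, stood apart because its libraries of 1 group differed widely among themselves. It was listed with 557, 97.9 and 119.6 TPM in hypoxia-treated cells, against 56.8, 321 and 118 TPM in normoxic cells (0.53, SE 0.82, adjusted p = 0.614, limma). The TPM of mt-Tm did not follow the deposited coverage of the same gene. Per unit of coverage its TPM was 1.00 to 7.43 times that of the median mitochondrial gene of the library, whereas 29 genes stayed within 1% of the median in every library and the other 7 stayed within 1.10 times. In aligned bases per gigabase, mt-Tm had 2066, 2635 and 2111 in hypoxia-treated cells, against 1574, 1711 and 1698 in normoxic cells, with no overlap. The TPM of mt-Tm was therefore read as a listed value only.

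A nuclear copy of mitochondrial DNA takes up a part of the reads. On chromosome 1 of mm10, between 24611535 and 24616197 on the minus strand, 7 annotated pseudogenes lie in the order of the mitochondrial chromosome and match mt-Co1 to mt-Nd4. Gm28661 (mt-Co2), Gm10925 (mt-Atp6), Gm28437 (mt-Co3), Gm10222 (mt-Nd4l) and Gm28439 (mt-Nd4) are identical to their sources over the 294 to 876 aligned bases. Gm29216 matches the last 483 bases of mt-Co1 at 99.79%, and Gm28438 matches mt-Nd3 over 345 bases at 99.71%. mt-Atp8 and the tRNAs mt-Ts1, mt-Td, mt-Tk, mt-Tg and mt-Tr lie inside the same span with no annotated copy.

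The 7 copies together held 2.17% ± 0.0269 of the annotated TPM in hypoxia-treated cells and 3.80% ± 0.0997 in normoxic cells (SD, n = 3 each). Gm28437 had 2282, 2232 and 2296 TPM in hypoxia-treated cells, against 5379, 5447 and 5275 TPM in normoxic cells, which is 0.991 to 0.998 of the mt-Co3 level in every library. Reads from identical stretches cannot be assigned to chrM or to chromosome 1 from these values. Gm28438 was 0.745, 0.752 and 0.766 of mt-Nd3 in hypoxia-treated cells, against 0.968, 0.958 and 2.32 in normoxic cells, where normoxia replicate 3 stood apart with 2351 TPM on the copy.

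**Figure D5:**
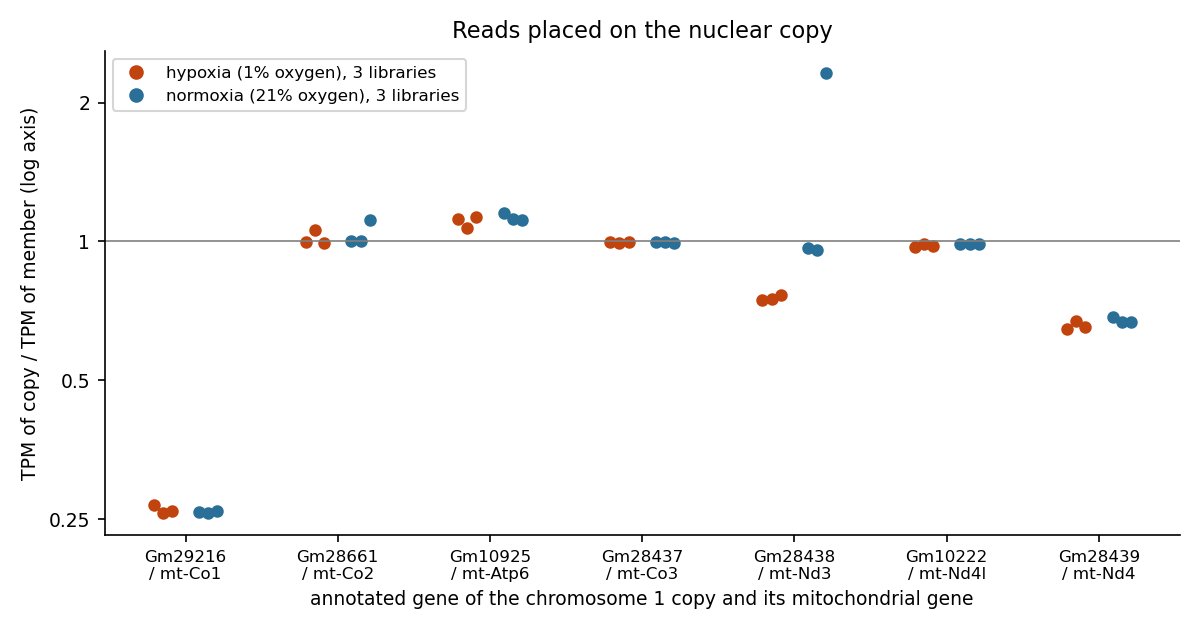
TPM of each annotated gene of the chromosome 1 copy divided by the TPM of its mitochondrial source, on a log axis, for 3 hypoxia and 3 normoxia libraries. Gm28437 and Gm10222 lie near 1 in every library, and Gm28438 over mt-Nd3 lies between 0.745 and 0.766 in hypoxia and reaches 2.32 in normoxia replicate 3.

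With the reads on the copy added to the mitochondrial gene, an alternative chosen after seeing the data, the 13 mRNAs were still lower in hypoxia-treated cells. mt-Nd3 then had 357, 355 and 422 TPM in hypoxia-treated cells, against 2182, 2073 and 3346 TPM in normoxic cells (-2.71, SE 0.18, adjusted p = 4.69e-05, limma). mt-Co1 then stood at -0.30 and mt-Co2 at -0.28, and mt-Co2 ranked 2 in the hypoxia libraries and 3 in the normoxia libraries. These ranks leave mt-Atp8 as listed, since it has no annotated copy. The 5 mRNAs outside the copied span (mt-Nd1, mt-Nd2, mt-Nd5, mt-Nd6 and mt-Cytb) spanned -1.64 to -0.33. With all annotated nuclear copies added, the mitochondrial share of the TPM was 7.72% ± 0.0784 in hypoxia-treated cells and 13.1% ± 0.0785 in normoxic cells. The other 4 matched copies, such as Gm13340 on chromosome 2 (97.6% identical to mt-Co1), had at most 0.00322 of the TPM of their source in any library.

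The strand of mitochondrial RNA cannot be read from these tables. Between 29.2% and 32.9% of the loci assembled from the reads carry no strand, and the sources do not say whether the libraries keep it. The assembled locus with most of the mitochondrial TPM was put on the minus strand in hypoxia replicate 1 (chrM:2751-13565, 28941 TPM) and hypoxia replicate 3 (chrM:2751-16199, 31875 TPM) and on the plus strand in hypoxia replicate 2 and the 3 normoxia libraries. For mt-Nd6 and the light-strand tRNAs, reads from the gene and from RNA of the opposite strand cannot be told apart.

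Nuclear genes for the same complexes were lower in part, by far less than most mitochondrial mRNAs. Complex I had 20 of 36 tested nuclear subunits lower and 1 higher, with a median log2 fold change of -0.26. Complex II, which has no mitochondrial gene, had 3 of 4 lower (median -0.19), and complex III had 8 of 9 lower (median -0.23). Complex IV had 8 of 13 lower and 1 higher (median -0.23), and complex V had 8 of 16 lower (median -0.21), beside 36.1% lower and 17.9% higher over all tested genes and a median of -0.13. Among those with the smallest adjusted p were Ndufa5 of complex I, with 52.6 ± 2.96 TPM in hypoxia-treated cells and 90.0 ± 5.34 TPM in normoxic cells (-0.77), and Ndufa4, now counted as a complex IV subunit, with 272 ± 28.9 TPM in hypoxia-treated cells and 595 ± 15.3 TPM in normoxic cells (-1.13). Sdhb, the iron-sulfur subunit of complex II, fell by 0.69, Uqcr10 of complex III by 0.43 and Atp5k of complex V by 0.52 on the log2 scale. Ndufv3 of complex I rose by 1.12 and Cox6a2, the muscle-type isoform of complex IV, by 1.36. After median-ratio scaling the 7 nuclear lists, 5 of complexes and the pair on mitochondrial DNA and RNA, had 46 of 133 tested genes lower and 18 higher (34.6% and 13.5%, beside 26.3% lower and 26.3% higher of all tested genes in that fit). As deposited, 78 were lower and 5 higher (58.6% and 3.76%, beside 36.1% and 17.9%).

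Genes that copy and transcribe mitochondrial DNA were lower at a share near that of all tested genes. Of 20 genes for transcription and replication of mitochondrial DNA, 8 were lower and 1 was higher (median -0.26), beside 36.1% lower and 17.9% higher over all tested genes and their median of -0.13. Tfam, which packages mitochondrial DNA and opens its promoters, had 22.01 ± 1.82 TPM in hypoxia-treated cells and 36.8 ± 1.86 TPM in normoxic cells (-0.72, SE 0.08, adjusted p = 0.000315, limma). Tefm, the transcription elongation factor, had 8.16 ± 0.255 TPM in hypoxia-treated cells and 14.99 ± 1.30 TPM in normoxic cells (-0.80, SE 0.08, adjusted p = 0.000299). Lig3, the DNA ligase, fell by 0.57, and Primpol, a primase-polymerase, rose by 0.99.

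Of 35 genes for processing and stability of mitochondrial RNA, 23 were lower and 2 were higher (median -0.42), beside the same 36.1% and 17.9% over all tested genes. Trub2, a pseudouridine synthase, had 9.23 ± 0.443 TPM in hypoxia-treated cells and 23.8 ± 1.30 TPM in normoxic cells (-1.28, SE 0.07, adjusted p = 2.43e-05, limma). Ptcd3, a pentatricopeptide repeat protein of the mitochondrial ribosome, fell by 0.81, and Hsd17b10, a subunit of mitochondrial RNase P, fell by 0.49. Grsf1, a protein of mitochondrial RNA granules, had 158 ± 12.8 TPM in hypoxia-treated cells and 86.3 ± 3.01 TPM in normoxic cells (0.87, SE 0.07, adjusted p = 7.64e-05). Fastk, whose mitochondrial form is needed for mt-Nd6 mRNA, rose by 0.44 on the log2 scale.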

How the data were processed

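RNA of GC-2spd cells from 6 libraries (3 hypoxia, 3 normoxia) was analysed. Paired NovaSeq reads of poly(A)-selected RNA had been trimmed by the authors (Cutadapt), mapped to mm10 (HISAT2) and summed per gene (StringTie; versions and annotation release not given in the sources used here). The deposited coverage, the mean read depth over a gene, was used for aligned bases and depth (5.75 to 6.72 gigabases). The deposited FPKM was an alternative to TPM. The deposited TPM lists annotated genes beside loci assembled from the reads, so it is treated as a signal whose annotated part summed to 948284 to 981418 a library, where an ordinary TPM table had been assumed. How multi-mapped reads were counted is not stated.

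Of 43432 gene IDs 42462 were matched to GENCODE M21. The authors tested counts with edgeR, which the values used here do not hold, so limma 3.58.1 in R 4.3.3 (trend, 2-sided, Benjamini-Hochberg, threshold 0.05) was fitted to log2(TPM + 1) of 13749 genes with a mean of at least 1 TPM. A pseudocount of 1 shrinks changes of low genes. Shares were compared by exact permutation (20 assignments). Copies were found with BLAST+ 2.17.0 on GENCODE transcripts. On simulated data for hypoxia against normoxia (13749 genes) the fit recovered 65.7% of changes of 0.585, 89.6% of 1 and 97.0% of 2 on the log2 scale, with 12 false calls. The simulation changed 67, 67 and 66 genes by these amounts, far fewer than were called in the data, so its rates need not hold there. Members and lists were chosen with earlier results of these data known. All 37 mitochondrial genes are named, and of each nuclear list members are named from those with the smallest adjusted p, up to 3 a direction. Same-numbered libraries did not deviate together (correlations 0.026, 0.033 and 0.011), so numbers were not used as pairs. Alternatives changed the pseudocount, filter, unit, variance trend, scaling, block, libraries and copies, and those with copies added to their gene or mt-Tm left out were chosen after seeing the data.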

Additional observations from a re-analysis of the deposited data

How the results depend on the processing

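The 3 libraries per group limit the precision, tRNA genes with under 1000 aligned bases are limited by depth, and identical nuclear copies and strand cannot be separated. Over the alternatives for the 37 genes, 534 of the values kept direction and side of the threshold, 34 lost a call, 10 gained one and 10 did not keep their direction. With quantile normalization mt-Co1 was 0.00, mt-Co2 0.39, mt-Cytb 0.08 and mt-Tf 0.09, and the cause was not tested. That method cannot show a change where a gene keeps its rank, and mt-Co1 ranked 1 of the mitochondrial mRNAs in every library. Median-ratio scaling gave 0.01 for mt-Tf and 0.06 for mt-Tc. With 1 library left out mt-Tm ranged from -0.26 (without hypoxia replicate 1) to 1.18, with -0.06 without normoxia replicate 1, and mt-Tf from -0.32 to 0.04 (without hypoxia replicate 3), with 0.02 without normoxia replicate 3. mt-Tf, mt-Tc and mt-Tm had no call in any of these fits. Without the filter, 3 genes were higher in place of 5, beside 2339 of 23954 tested genes higher in that fit. The light-strand share differed by 0.174 percentage points, but by -0.487 in aligned bases and by -0.828 without tRNAs, where the total no longer holds the light-strand tRNAs. The nuclear lists had 46 lower and 18 higher genes after median-ratio scaling and 16 higher with quantile normalization. With 1 library left out, 20 to 22 of the 37 mitochondrial genes were lower and 3 to 6 higher. In the nuclear lists 68 to 71 were lower and 5 to 6 higher. Of the 13749 tested genes 4315 to 4781 were lower and 2101 to 2295 higher in these fits. Relative to the mRNAs, 8 to 9 mitochondrial genes were lower and 25 to 26 higher, beside 203 to 233 lower and 12085 to 12202 higher of all tested genes. The mitochondrial share then differed by -3.74 to -3.69 points, the mRNA share by -2.43 to -2.14, the rRNA share by 0.900 to 1.05, the tRNA share by 1.09 to 1.49 and the light-strand share by 0.111 to 0.251. With the replicate number as a block, 22 mitochondrial genes were lower and 4 higher (8 and 25 relative to the mRNAs). Of all tested genes 4674 were then lower and 2281 higher (222 and 12298 relative to the mRNAs). mt-Td lost its call under the block, and mt-Co3 and mt-Nd5 lost theirs relative to the mRNAs only.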
